A study of Arabidopsis thaliana with 24 samples.

Results

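A set of 100 transcripts fell from their dry-seed level on cold imbibition of wild-type Arabidopsis thaliana seed. They were still below that level after 6 h of light and had risen again by 24 h of light. The members were chosen from the wild-type arrays alone. For each probe set, the lower of the mean log2 levels in dry seed and at 24 h of light was taken, and the higher of the means at the end of stratification and at 6 h of light was subtracted from it. The 100 non-control probe sets of 22746 with the highest such score, called the dip score here, are the members. Because all 12 wild-type arrays entered the choice, the wild-type course of the members is a description and carries no test. Stages were tested on the 12 mutant arrays, which the choice did not use. Calls between genotypes come from a fit that also holds the WT arrays and are given as a description.

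The arrays compared Col-0 wild type (WT) with Attim17-1, written tim17-1 here, a mutant in the Col-0 background for a Tim17 subunit of the translocase that carries proteins across the inner mitochondrial membrane. Seeds of each genotype were sampled dry (0 h) and after dark stratification at 4 °C for 48 h on Murashige and Skoog medium (48 h S). Later samples had a further 6 h or 24 h of continuous light at 22 °C (6 h SL and 24 h SL). Each of the 8 groups had 3 arrays, each from RNA of 80 mg of seed hybridised to the Affymetrix ATH1 array. The labels give the time of ripening after collection as 14 days in one place and 15 days in another, and they call the WT dry seed freshly harvested but the mutant dry seed only dry. The sources used here do not give the kind of lesion in tim17-1, and the targeted transcript is not analysed here, which leaves the genotype labels without that check. Nothing in the labels says that the arrays of a group came from separate plants or seed lots, so each p-value measures the spread between these arrays, which may be technical.

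A dry Arabidopsis seed carries stored messenger RNA made while the seed matured and dried on the mother plant. Much of this stored RNA is broken down as water is taken up, while cold stratification relieves dormancy and light, read by phytochrome, permits germination. As the embryo turns to growth and to photosynthesis, new transcripts for light harvesting, photorespiration and cell wall building accumulate, and some genes are active both late in maturation and again in the young seedling.

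The deposited values are intensities on a linear scale, 1 per probe set and array. Upper quartiles ran from 234.2 to 258.0 over the 24 arrays and medians from 19.63 to 36.45, and the root mean square difference of members between replicate arrays was 0.156 to 0.344 on the log2(intensity + 16) scale, against 0.108 to 0.244 for all probe sets. The dry seed was checked against seed markers: the oleosin OLEO3 lay at 1960 ± 123 and the storage vicilin PAP85 at 35658 ± 1004 (SD, n = 3) in WT. Of the 100 members, 43 have 1 annotated gene, 2 have several and are called by probe set only, and 55 are unnamed here. Because seed is a bulk sample, fewer cells of a type and less RNA per cell cannot be told apart.

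The median member fell by more than 5-fold in WT on imbibition and had regained most of its dry-seed level by 24 h SL. The median over members of the group mean intensity in WT was 352.4 in dry seed, 26.5 at 48 h S, 39.3 at 6 h SL and 276.3 at 24 h SL. In tim17-1 the same medians were 342.5, 25.1, 39.0 and 224.1. The medians over all probe sets rose slowly in both genotypes, from 21.1 to 36.0 in WT and from 20.5 to 36.1 in tim17-1.

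**Figure D1:**
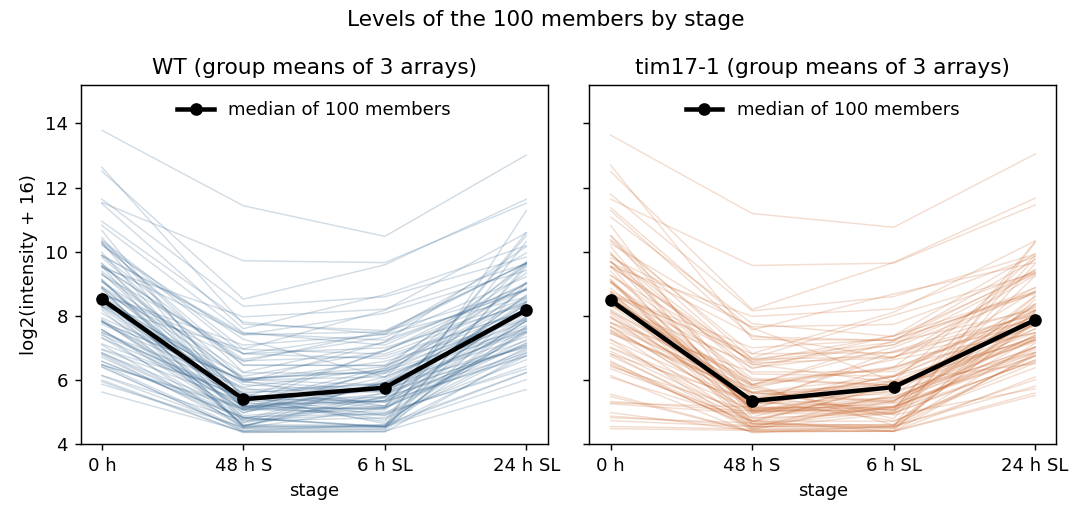
Mean level on a log scale of each of the 100 members (thin lines) at the 4 stages in WT and tim17-1, with the median over members (thick line). As intensity, the median over members was 352.4 in WT dry seed, 26.5 at 48 h S, 39.3 at 6 h SL and 276.3 at 24 h SL. In tim17-1 it was 342.5, 25.1, 39.0 and 224.1 at the same stages.

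In WT the median member stood 2.73 lower at 48 h S than in dry seed on the log2(intensity + 16) scale, or 6.63-fold, and 2.37 lower at 6 h SL, or 5.17-fold. The lowest stage was 48 h S for 66 members and 6 h SL for 34. At 24 h SL, 40 members stood above their dry-seed level and 60 below it, with a median difference of -0.22 and a range from -3.92 to 4.18. The dip scores that chose the members ran from 1.15 to 3.42 with a median of 1.63, and the median score of all probe sets was -0.17. At the edge of the set, 264545_at scored 1.16, and AT5G44410 and 253480_at scored 1.15 just inside. AT1G24530 and 246158_at at 1.14 and 250233_at at 1.13 lay just outside.

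The low stages were low but not empty for the brightest members. In WT, 76 members had a mean intensity under 64 at 48 h S and 67 at 6 h SL, against 6 in dry seed and 4 at 24 h SL. AT3G11930, which codes for a universal stress protein, kept 2751 ± 54.8 at 48 h S and 1422 ± 212 at 6 h SL (SD, n = 3), and lay at 14109 and 8326 at the first and last stages. The files give no detection call, so which low values lie above background is not known.

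The fall and return were also found on the tim17-1 arrays, for which the members had not been chosen. With limma across all probe sets and Benjamini-Hochberg adjustment, 89 of 100 members were lower at both 48 h S and 6 h SL than in dry seed and higher at 24 h SL than at both, each at an adjusted p under 0.05, against 3.32% of all probe sets. From dry seed to 48 h S, 91 members fell and 0 rose, where 29.3% of all probe sets fell and 26.4% rose. From dry seed to 6 h SL, 95 members fell (41.5% of all). From 48 h S to 24 h SL, 99 rose and 0 fell (24.8% and 36.2% of all), and from 6 h SL to 24 h SL, 99 rose (20.1% of all).

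The sizes in tim17-1 were of the same order as in WT. The median member changed by -2.63 from dry seed to 48 h S in tim17-1, or 6.20-fold down, by -2.28 from dry seed to 6 h SL, by 2.14 from 48 h S to 24 h SL and by 1.81 from 6 h SL to 24 h SL. The dip score computed from the tim17-1 arrays had a median of 1.51 and ranged from -0.31 to 3.73. It was above 0 in 98 members, where 10.1% of all probe sets had a score above 0. It was lower than the WT score in 62 members and higher in 38. When the 100 highest scores were taken from tim17-1 in place of WT, 77 probe sets were in both sets.

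**Figure D2:**
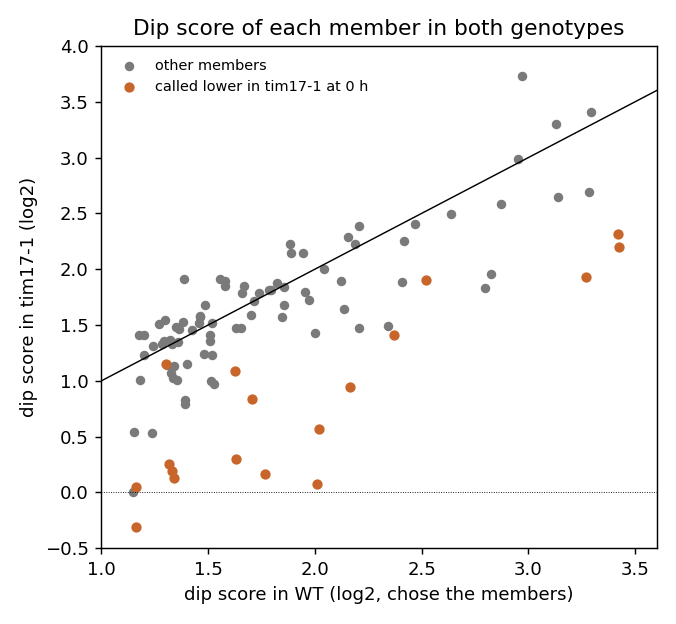
Dip score (log2) computed from the tim17-1 arrays against that from the WT arrays, which chose the members; each point is 1 probe set. The members lie at 1.15 or more on the WT axis and from -0.31 to 3.73 on the tim17-1 axis, and 18 of the 100 score under 1 in tim17-1.

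Between 48 h S and 6 h SL the members did not share a direction. In tim17-1, 42 members rose and 7 fell over this step, where 18.2% of all probe sets rose and 17.1% fell, and the median change was 0.21. Among members with 1 gene, 24 rose and 2 fell. The largest rise among these was that of AT3G50685, a gene of unstated function here, by 1.65 (SE 0.14, adjusted p = 1.42e-05). The 2 that fell were the universal stress protein gene AT3G11930, at -0.43 (SE 0.10, adjusted p = 0.00822), and AT1G68500 at -0.71. The call for AT1G68500 was lost without replicate 3 of 48 h S (-0.55), replicate 1 of 6 h SL (-0.55) or replicate 2 of 6 h SL (-0.71), and with the replicate number as a block (-0.71, adjusted p = 0.0527 by limma).

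Members that code for parts of the photosynthetic apparatus included LHCB4.1 and LHCB4.2. Both code for CP29, a minor antenna protein that passes excitation to photosystem II. LHCB4.3 was also measured but was not a member. Its means in WT were 54.4, 112, 144 and 717. In tim17-1 it rose by 1.25 (SE 0.17, adjusted p = 9.93e-05 by limma) from dry seed to 48 h S. LHCB4.1 read 1376, 1182 and 1358 in dry seed, 121, 93.3 and 115 at 48 h S, 266, 273 and 282 at 6 h SL and 1478, 1489 and 1611 at 24 h SL in WT. In tim17-1 it read 1322, 1364 and 1276, then 104, 91.5 and 96.8, then 255, 276 and 253, and 1231, 1305 and 1305 at the same stages. The 3 arrays of each middle stage lay below all arrays of dry seed and of 24 h SL in both genotypes, and 6 h SL lay above 48 h S.

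In tim17-1 LHCB4.1 changed by -3.56 (SE 0.049, adjusted p = 1.38e-11) from dry seed to 48 h S, by 1.29 (SE 0.049, adjusted p = 1.02e-07) from 48 h S to 6 h SL and by 2.23 (SE 0.049, adjusted p = 1.44e-09) from 6 h SL to 24 h SL. Its level at 24 h SL differed from that in dry seed by -0.044 (SE 0.049, adjusted p = 0.415). LHCB4.2 had group means of 299, 45.8, 36.0 and 268 in WT and 263, 48.4, 43.5 and 163 in tim17-1. Its change from 48 h S to 6 h SL in tim17-1 was -0.17 (SE 0.22, adjusted p = 0.601). AT3G47070, which codes for the thylakoid phosphoprotein TSP9, had means of 928, 154, 166 and 782 in WT, and its change from 48 h S to 6 h SL in tim17-1 was 0.073.

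A further 3 members act in photorespiration, on light signals or in plastid metabolism. HPR, the peroxisomal hydroxypyruvate reductase of photorespiration, was chosen for mention after its values were seen. It read 339, 312 and 291 in tim17-1 dry seed, 38.9, 41.3 and 43.3 at 48 h S, 128, 142 and 132 at 6 h SL and 759, 969 and 829 at 24 h SL, and thus ended 1.39 (SE 0.086, adjusted p = 2.52e-07) above dry seed on the log2 scale. AT3G52740, whose product inhibits cryptochrome blue-light receptors, had means of 353, 15.4, 64.1 and 505 in WT and 343, 24.1, 52.7 and 431 in tim17-1. AT4G16155, for a plastid dihydrolipoamide dehydrogenase, a subunit of the pyruvate dehydrogenase complex that feeds fatty acid synthesis, had means of 291, 17.3, 43.8 and 148 in WT and ended lower than it began in tim17-1, at -0.97 (SE 0.084, adjusted p = 3.33e-06) against dry seed.

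**Figure D3:**
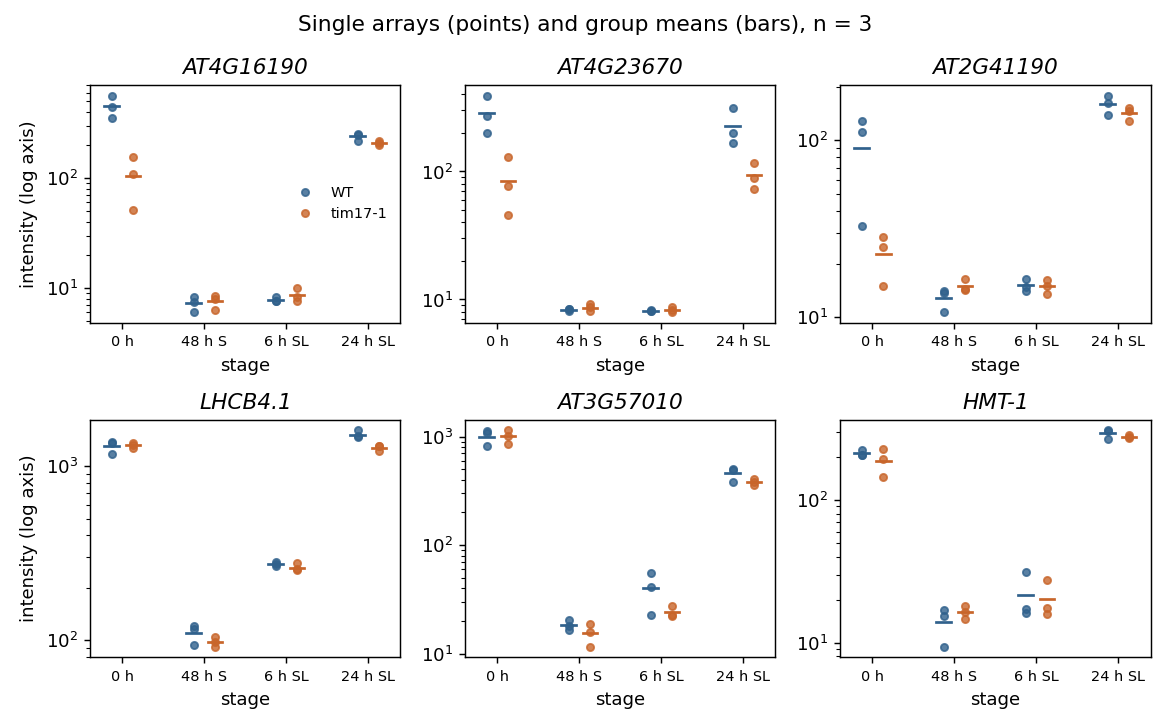
Intensity on a log axis of 6 members on each array (points) with group means (lines) at the 4 stages in WT and tim17-1. In LHCB4.1, AT3G57010 and HMT-1 the genotypes overlap or lie close in dry seed, while for AT4G16190, AT4G23670 and AT2G41190 all 3 tim17-1 dry-seed arrays lie below the 3 WT arrays.

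Most of the greening genes on the lists used here were not members, and members are 100 of all 22746 probe sets. The set holds 2 of the 8 measured genes of a list of photosystem and light-harvesting genes, and the same 2, LHCB4.1 and LHCB4.2, were the only genes of that list called for the dip in tim17-1. From dry seed to 48 h S, 4 of the 8 rose and 2 fell in tim17-1, with a median change of 0.61, and from 6 h SL to 24 h SL all 8 rose, with a median of 2.29, where the median over all probe sets lay within 0.05 of 0. Of 7 genes of chlorophyll synthesis, 5 rose and 0 fell from dry seed to 48 h S and 7 rose from 6 h SL to 24 h SL; none was a member. Of 3 genes of carbon fixation, 2 rose and 0 fell over the first step and 3 rose over the last. Only probe sets with 1 annotated gene could fall in a list, which leaves out the 2 members with several genes and the 55 unnamed members. Over all 26 lists, of which 25 held a measured gene, 132 genes were measured. LHCB4.1 and LHCB4.2 were the only members among them. For the dip in tim17-1, 5 genes (3.79%) were called, near the 3.32% of all probe sets. The other 3 were LEA4-5 and AT2G44060 of a list of late embryogenesis abundant genes and the tubulin gene TUB7, which ranked 10943, 307 and 274 by WT dip score.

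Members that act in protein and amino acid turnover were led by AT4G16190, a papain-like cysteine protease gene, with the highest dip score. In WT it read 446, 354 and 562 in dry seed, 7.48, 8.31 and 6.05 at 48 h S, 7.64, 7.62 and 8.22 at 6 h SL and 219.5, 251 and 249 at 24 h SL. In tim17-1 it read 51.7, 109 and 154, then 6.28, 8.45 and 7.92, then 7.57, 8.28 and 9.94, and 199, 207 and 216. The arrays of both middle stages were lower than every array of dry seed and of 24 h SL in each genotype, and the tim17-1 dry-seed arrays lay below every WT dry-seed array. The step from 6 h SL to 24 h SL in tim17-1 was 3.18 (SE 0.27, adjusted p = 7.49e-06).

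AT3G14067, for a subtilisin-like serine protease, had means of 145, 11.4, 45.6 and 195 in WT and 138, 6.04, 24.9 and 180.1 in tim17-1. PUB19, for a U-box ubiquitin ligase of stress responses, had means of 89.2, 9.35, 29.2 and 101 in WT and 66.1, 10.5, 40.5 and 136 in tim17-1. HMT-1, for a homocysteine S-methyltransferase that makes methionine from S-methylmethionine, read 225, 208 and 207 in dry seed, 15.3, 17.0 and 9.36 at 48 h S, 31.0, 16.2 and 17.1 at 6 h SL and 269, 306 and 307 at 24 h SL in WT, and the tim17-1 arrays followed at 145, 227 and 193, then 14.6, 16.3 and 18.1, then 17.3, 15.8 and 27.2, and 278, 270 and 284. From 48 h S to 24 h SL HMT-1 rose by 3.18 (SE 0.15, adjusted p = 8.04e-08) in tim17-1.

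AT5G27410, which codes for a pyridoxal phosphate-dependent aminotransferase-like protein, had means of 603, 97.5, 159 and 982 in WT. D2HGDH, the mitochondrial D-2-hydroxyglutarate dehydrogenase that helps feed electrons from amino acid breakdown into respiration, was also chosen for mention after its values were seen, and it had means of 230, 47.6, 80.3 and 219.6 in WT and 228, 40.7, 67.8 and 239 in tim17-1. The level at 24 h SL minus that in dry seed was, in tim17-1, 0.68 (SE 0.079, adjusted p = 3.20e-05) for AT5G27410 and 0.059 (SE 0.092, adjusted p = 0.555) for D2HGDH. MSRB6, for a methionine sulfoxide reductase that repairs oxidised methionine, had means of 108, 24.6, 29.0 and 225 in WT and 115, 22.4, 27.7 and 116 in tim17-1.

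A list of 34 genes of cell wall growth held 0 members and 0 genes called for the dip in tim17-1. In dry seed 28 of the 34 had a mean intensity under 16 in each genotype, so few could show a fall. A few members are enzymes of sugar transfer or of specialised metabolism. AT3G57010, for a strictosidine synthase-like protein, showed one of the deepest falls. It read 816, 1074 and 1119 in dry seed, 16.6, 20.6 and 17.8 at 48 h S, 40.8, 55.9 and 22.9 at 6 h SL and 495, 379.6 and 509 at 24 h SL in WT and 861, 1012 and 1139.8, then 11.6, 15.98 and 18.8, then 22.4, 22.5 and 27.6, and 379, 406 and 357 in tim17-1. The groups of dry seed and of the middle stages did not overlap in either genotype. In tim17-1 it fell by 5.02 (SE 0.11, adjusted p = 2.73e-10) on the log2 scale from dry seed to 48 h S and ended at -1.36 (SE 0.11, adjusted p = 2.72e-06) against dry seed.

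UGT78D2, the flavonoid 3-O-glucosyltransferase of anthocyanin and flavonol synthesis, had means of 526, 18.8, 27.3 and 120 in WT and 509.8, 17.0, 22.6 and 91.4 in tim17-1. It regained little of its dry-seed level, with 24 h SL minus 0 h in tim17-1 at -2.29 (SE 0.041, adjusted p = 3.34e-11). AT1G22430, for an alcohol dehydrogenase-like protein, had means of 215, 18.2, 62.7 and 343 in WT. AT2G41640 and AT1G05170, for glycosyltransferases, and AT2G34300, for a putative methyltransferase, had dry-seed means of 222, 99.6 and 299 in WT and 48 h S means of 20.3, 17.8 and 109. In tim17-1 their rises from 48 h S to 24 h SL were 2.22, 1.53 and 1.06, all called.

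Of the remaining named members, several code for membrane or stress proteins. AT4G33660, for a small cysteine-rich membrane protein, had means of 629, 24.1, 68.6 and 754 in WT and rose by 4.37 (SE 0.081, adjusted p = 2.19e-10) from 48 h S to 24 h SL in tim17-1. AT4G33666 lies next to it on the TAIR10.1 assembly and is also a member, with means of 459, 30.8, 20.0 and 166 in WT. For these neighbours 24 h SL minus 0 h in tim17-1 was 0.07 (SE 0.081, adjusted p = 0.429) for AT4G33660 and -1.83 (SE 0.20, adjusted p = 2.13e-05) for AT4G33666, and the difference between the genes was not itself tested. AT4G16190 and AT4G16155, named above, lie 5 genes apart.

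AT1G52870, for a protein of the Mpv17/PMP22 family of organelle membranes, had means of 1791, 162, 120.4 and 493 in WT and 2479.6, 149, 135 and 419 in tim17-1. It had the lowest 24 h SL level relative to dry seed among the members with 1 gene in tim17-1, at -2.52 (SE 0.10, adjusted p = 1.08e-08). AILP1, an aluminium-induced protein-like gene, had means of 2959, 827, 796 and 2921 in WT, and SETH3, for a sugar-phosphate isomerase-like protein, had means of 209.7, 48.2, 53.7 and 212. AT2G43535, for a knottin-type defence protein, had means of 164, 37.8, 20.3 and 213. AT3G27770, of unstated function here, was among the brightest, at 5833, 352, 764 and 3169.9 in WT. AT3G52360 and AT3G23170, also of unstated function here, had means of 737, 9.88, 45.5 and 313 and of 100.0, 12.4, 19.8 and 108 in WT.

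At 24 h SL the tim17-1 members had regained different parts of their dry-seed level. In that genotype 29 members were higher at 24 h SL than in dry seed and 52 were lower, where 30.1% of all probe sets were higher and 52.3% lower, so both shares were near those of all probe sets. Among members with 1 gene, 11 were higher and 21 lower. AT2G41190, for an amino acid transporter-like protein, was the highest of them relative to dry seed, at 2.05 (SE 0.12, adjusted p = 1.54e-07), and PUB19 stood at 0.90 (SE 0.10, adjusted p = 2.54e-05). The higher call was lost when a single array was left out for AT3G52740 (lowest value 0.13) and AT1G22430 (lowest 0.24). The lower call was lost likewise for LHCB4.2, whose value was -0.58 without replicate 2 of dry seed, -0.58 without replicate 1 and -0.63 without replicate 3 of 24 h SL.

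The genotypes were set side by side at each stage with 1 fit over all 24 arrays. Since the WT values chose the members, the counts and values below describe the set and nothing is read from them about tim17-1. In dry seed 18 members were called lower and 2 higher in tim17-1, where 2.33% and 1.32% of all probe sets were. At 48 h S the counts were 2 lower and 0 higher (0.87% and 0.361% of all), and at 6 h SL 1 lower and 0 higher (0.769% and 0.51%). At 24 h SL 27 were lower and 1 higher (2.73% and 1.59%). These counts depended on the fit: with only the arrays of the stage 4 members were lower in dry seed and 1 at 24 h SL, and with array weights 20 were lower and 7 higher at 48 h S and 7 lower and 1 higher at 6 h SL. The median tim17-1 minus WT difference over members was -0.014, -0.043, -0.022 and -0.23 at the 4 stages in order.

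**Figure D4:**
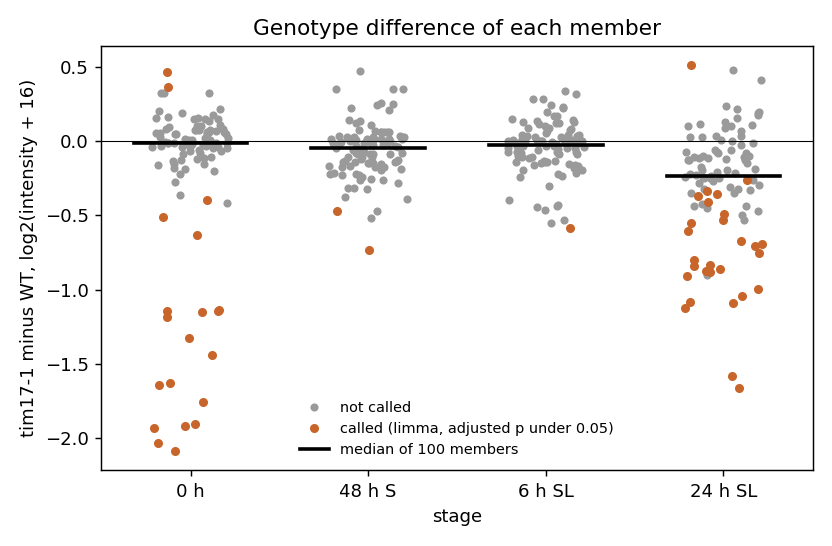
Difference tim17-1 minus WT (log2 of intensity + 16) of each member at the 4 stages, with the median over members. The medians lie at -0.014, -0.043, -0.022 and -0.23, and 78 of 100 members lie below 0 at 24 h SL; members were chosen on WT values.

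Without reference to a test, all 3 tim17-1 arrays lay below all 3 WT arrays for 23 members in dry seed (6.41% of all probe sets), 15 at 48 h S (9.99%), 13 at 6 h SL (8.22%) and 50 at 24 h SL (7.83%). The reverse order held for 11 (6.28%), 10 (8.64%), 6 (6.72%) and 6 (8.58%) members. When the 100 members were chosen from the tim17-1 arrays by the same score, so that tim17-1 values did the choosing, 8 were called lower and 1 higher in dry seed and 16 lower and 2 higher at 24 h SL. The median difference at 24 h SL was then -0.13, with 70 of 100 below 0. For the 77 probe sets in both choices, 6 were lower and 1 higher in dry seed, and 14 lower and 1 higher at 24 h SL, with a median there of -0.20.

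The 18 members called lower in tim17-1 dry seed are described apart from the rest. They include AT4G16190, AT4G23670 and AT2G41190 among members with 1 gene, and 11 of the 18 had a WT dry-seed mean under 100. The median difference over the 18 was -1.38 in dry seed, with a range from -2.09 to -0.39, and it was 0.01 at 48 h S, -0.01 at 6 h SL and -0.78 at 24 h SL, where 10 of them were called lower. Over the other 82 members the same medians were 0.01, -0.08, -0.03 and -0.22. Among the 18, AT4G16190, AT4G23670 and 265033_at had means under 16 at both middle stages in both genotypes, where a difference can hardly show. Others of the 18 were brighter there, such as 246481_s_at at 49.0 in WT at 48 h S. The median log2 level of the 18 on each dry-seed array was 6.88, 6.46 and 6.83 in WT and 5.42, 5.39 and 5.58 in tim17-1, which restates the choice of the 18. When 1 dry-seed array was left out, 15 to 17 of the 18 were still called, and 4 were when only the dry-seed arrays were fitted, where the median difference was again -1.38. On the dry-seed arrays the other 82 lay at 8.66 to 8.80 in WT and 8.68 to 8.77 in tim17-1.

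AT4G23670, for a protein of the major latex protein family related to the birch allergen Bet v 1, read 390.4, 199 and 269 in dry seed, 8.4, 8.15 and 8.45 at 48 h S, 8.35, 8.12 and 8.06 at 6 h SL and 314, 165 and 200.3 at 24 h SL in WT. In tim17-1 it read 45.4, 129 and 76.6, then 8.66, 9.23 and 8.06, then 8.21, 8.71 and 8, and 72.9, 117 and 89.5. The mutant arrays were lower at both ends of the course and overlapped the WT arrays in the middle, with tim17-1 minus WT at -1.64 (SE 0.26) in dry seed and -1.12 (SE 0.26) at 24 h SL. AT2G41190 read 128, 32.6 and 112 in WT dry seed and 14.9, 28.5 and 24.8 in tim17-1 dry seed, with WT replicate 2 close to the mutant arrays. Its step from dry seed to 48 h S in tim17-1 was -0.30 (SE 0.12, adjusted p = 0.0563), and it was called with log2(intensity + 1) (-0.52), cyclic loess (-0.43) or array weights (-0.33), and without dry-seed replicate 1 (-0.46). At 24 h SL it read 178, 162 and 139 in WT and 146, 152 and 129 in tim17-1, and the genotypes overlapped there.

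Within tim17-1, 9 of these 18 were called for the dip, against 80 of the other 82. The 18 fell by a median of 0.84 from dry seed to 48 h S, with 9 called lower, and stood a median of 2.12 above dry seed at 24 h SL, with 15 called higher and 1 lower. The other 82 changed by a median of -2.87 over the first step, all called lower, and ended at a median of -0.59, with 14 called higher and 51 lower. The 18 were picked by a contrast that holds the same tim17-1 dry-seed arrays, so these counts are a description.

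Markers of other cells and greening genes were read on the same dry-seed arrays. In a list of 8 pollen markers 0 were called between the genotypes in dry seed, and 7 of the 8 had means under 16 in both. The summed intensity of the list was 308 to 360 in WT and 296 to 316 in tim17-1, so it rests chiefly on the remaining gene. In WT at 48 h S the sum was 1517 to 1668, with 7 of the 8 again under 16. The list therefore says little about pollen transcripts in the dry seed. The median difference over the 8 was -0.026. A further 3 pollen markers are given because earlier work on these data named them for their fall, and the rest of their list is not used here. They were thus picked on the difference shown and do not stand for pollen markers as a set. AT3G62710 lay at 112 ± 3.03 in WT and 20.8 ± 18.1 in tim17-1 (SD, n = 3), AT4G02250 at 166 ± 12.9 and 42.1 ± 37.2, and AT3G05610 at 92.5 ± 18.6 and 14.9 ± 8.44. The carbon fixation list summed to 88.0 to 133 in WT and 41.9 to 62.5 in tim17-1, with RCA, for rubisco activase, called lower at -1.20. Of the photosystem list, 1 of 8 genes, PSAE-1, was called lower, at dim means of 22.2 in WT and 7.65 in tim17-1. The median difference over that list was -0.21. The list summed to 1678 to 1886 in WT and 1699.5 to 1808 in tim17-1, chiefly through LHCB4.1, with means of 1305 and 1321. The seed coat genes DFR and BAN were both under 16. Their part in the dry-seed difference was not tested.

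At 24 h SL the members with 1 gene that were called lower in tim17-1 numbered 9 and held genes of several roles; over all members with or without a gene, the count of 27 fell to 1 with only the arrays of this stage. MSRB6 read 229, 202 and 244 in WT and 90.3, 129 and 130 in tim17-1, a difference of -0.88 (SE 0.13). LHCB4.2 read 252, 287 and 266 in WT and 147, 182 and 159 in tim17-1, a difference of -0.67 (SE 0.17). The genotypes did not overlap for either gene.

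For LHCB4.1 the difference at 24 h SL was -0.25 (SE 0.072) and was not called. In the photosystem list 4 of 8 genes were called lower at this stage, with a median difference of -0.48, in the carbon fixation list 2 of 3 (median -0.51) and in the chlorophyll synthesis list 1 of 7 (median -0.10), where 2.73% of all probe sets were. HPR differed by -0.41 (SE 0.082), UGT78D2 by -0.34 (SE 0.071) and AT3G47070 by -0.26 (SE 0.071). AT3G14880, of unstated function here, was the member called higher, at 153, 164 and 177 in WT and 239.8, 228 and 256 in tim17-1.

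The 11 members without the dip call in tim17-1 were of 2 kinds. In 9 of them, AT2G41190 and the probe sets 267002_s_at, 265033_at, 255997_s_at, 251325_s_at, 262312_at, 253022_at, 251814_at and 264545_at, the tim17-1 dry-seed level was already low, and all 9 are among the 18 above. Except for 251814_at and 264545_at, these probe sets were singled out after their values were seen. In 265033_at, for one, the WT dry-seed arrays read 82.0, 61.3 and 79.1 and the tim17-1 arrays 7.31, 7.47 and 7.64, and by 24 h SL the arrays read 509, 438 and 583 in WT and 191, 298 and 314 in tim17-1. The rise to 24 h SL was called in tim17-1 for all 9 of them.

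AT5G44410, for a berberine bridge enzyme-like oxidase, and 253480_at fell in tim17-1 and missed a call on the return. AT5G44410 had means of 385, 35.8, 42.1 and 114 in WT and 373, 30.1, 47.0 and 79.2 in tim17-1, and the step from 6 h SL to 24 h SL was 0.54 (SE 0.25, adjusted p = 0.123) there. That step was called by limma with the low-value filter (adjusted p = 0.0284) and with all 24 arrays in the fit (adjusted p = 0.0476). For 253480_at the means were 137, 29.3, 14.0 and 85.3 in WT and 160.3, 37.2, 14.2 and 38.1 in tim17-1. Its step from 48 h S to 24 h SL in tim17-1 was -0.00038 (SE 0.15, adjusted p = 0.998), while it rose from 6 h SL to 24 h SL by 0.82 (SE 0.15, adjusted p = 0.00166).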

How the data were processed

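Affymetrix ATH1 arrays of 8 groups, 3 arrays each, were read as 1 deposited table of 22810 probe sets. The authors deposited a linear intensity for each probe set and array. MAS5, RMA and Partek are named per the submitters' processing notes, with no versions and no order given, and the scaling of the deposited intensity values is not stated there. After 64 control probe sets were left out, log2(intensity + 16) was taken with no further normalization, so a fold understates the change of dim probe sets. Tests used limma 3.58.1 in R 4.3.3 (lmFit and eBayes) over all 22746 probe sets with Benjamini-Hochberg adjustment at 0.05. Stages were compared in a fit of the 12 tim17-1 arrays (8 residual degrees of freedom), and genotypes at each stage in a fit of all 24 arrays (16 residual degrees of freedom). The dip was called where all 4 steps passed. The number of arrays limits the precision. The scripts were tested on simulated data.

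Genes were named from the platform annotation, updated through the RefSeq table of TAIR10.1, where a probe set had 1 gene. The members, the gene lists and the tests were chosen with earlier results of these data known. Named members with 1 gene (33 of 43) were the 25 highest by score, those in a list, the 3 highest and 3 lowest by genotype difference at each stage, the 3 on each side of the threshold, the 3 lowest by tim17-1 score, assembly neighbours at most 5 genes apart and the 3 brightest at 24 h SL. HPR and D2HGDH were added after their values were seen. Alternatives were other offsets (1 and 64), cyclic loess, a filter on low values (64), array weights, a replicate block, other sets of arrays, other rules for the members and leaving out each array. Sequences were not used here.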

Additional observations from a re-analysis of the deposited data

Results flagged for a closer look

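For 3 members the change from dry seed to 24 h SL ran in opposite directions in the genotypes, with all 3 arrays at 24 h SL above all 3 dry-seed arrays in one genotype and below them in the other. AT4G16190, the cysteine protease gene, stood at -0.86 in WT and 0.98 in tim17-1 on the log2(intensity + 16) scale, a difference of 1.84. AT2G34300, the putative methyltransferase gene, stood at 0.13 in WT and -0.78 in tim17-1, a difference of -0.92. The unnamed probe set 251885_at stood at 0.37 in WT and -0.39 in tim17-1, a difference of -0.76. These differences between genotypes were not tested, and the WT values had entered the choice of the members. The same count was not taken over all probe sets, so whether 3 members is unusual is not known.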

How the results depend on the processing

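The dip call in tim17-1 held for 87 to 92 members when 1 array was left out, for 92, 88 and 93 with log2(intensity + 1), log2(intensity + 64) and cyclic loess, for 72 of the 73 members past a low-value filter, for 92 with array weights and for 91 with all 24 arrays in the fit. Of the 100 members, 81, 80 and 94 were chosen again with the 2 other offsets and cyclic loess, and 96 to 99 without any single WT array. The counts that moved by over 1.5 times follow. They are out of 100 members, except out of 73 with the filter and out of 77 with the shared members. From 48 h S to 6 h SL, 7 members fell, against 12 with array weights and 11 with all 24 arrays. From dry seed to 24 h SL, 29 of 100 rose, against 17 of the 73 past the filter. In dry seed, 18 members were lower and 2 higher in tim17-1. The lower count was 6 with the filter, 4 with only the arrays of that stage, 8 with members chosen on tim17-1 and 6 with the 77 shared members, an alternative added after seeing the data. The higher count was 0 with array weights or only that stage, and 1 with either of those choices of members. At 48 h S, where 2 were lower and 0 higher, array weights gave 20 lower and 7 higher, log2(intensity + 1) gave 4 lower and 1 higher, and the stage alone gave 1 lower. At 6 h SL, where 1 was lower and 0 higher, array weights gave 7 lower and 1 higher, and the filter or the stage alone gave 0 lower. At 24 h SL, 27 lower became 1 with only that stage, 16 with members chosen on tim17-1 and 14 with the shared members. The 1 higher there became 0 with log2(intensity + 1), cyclic loess or only that stage, and 2 with log2(intensity + 64), the filter, array weights, and members chosen on tim17-1 or on both genotypes. Leaving out 1 array gave 91 to 94 members lower at 48 h S and 91 to 94 at 6 h SL than in tim17-1 dry seed, 35 to 42 higher and 6 to 9 lower from 48 h S to 6 h SL, 98 to 99 higher at 24 h SL than at either middle stage, and 25 to 28 higher and 48 to 56 lower than in dry seed. Between genotypes, the dry seed had 2 to 3 members higher and 15 to 17 lower in tim17-1 and the 24 h SL stage 0 to 2 higher and 18 to 29 lower; the counts were 0 to 1 higher and 1 to 3 lower at 48 h S, 0 higher and 0 to 1 lower at 6 h SL. The cause of these shifts was not tested.

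For 253480_at the step from 48 h S to 24 h SL in tim17-1, -0.0004 and -0.17 without tim17-1 24 h SL replicate 3, changed sign to 0.0060 with log2(intensity + 64), 0.058 without tim17-1 48 h S replicate 1, and 0.17 and 0.0038 without tim17-1 24 h SL replicates 1 and 2. Of the stage steps of named members, 51 values under an alternative lost the call, 8 gained it, 4 changed sign and 2519 stayed on the same side of the threshold, called or not. The filter dropped 27 members, chiefly dim ones, so they have no value under it.

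No pairing of the samples by replicate number was seen, which does not show that arrays of 1 number shared no harvest or batch. Deviations of arrays with the same number correlated from -0.094 to 0.104 between stages of tim17-1 and from -0.26 to 0.091 between genotypes, other numbers from -0.134 to 0.105 and from -0.266 to 0.289, and in 0 of 6 and 0 of 4 pairs of groups did every array correlate best with its own number. With the replicate block 90 members had the dip call, 93 fell from dry seed to 48 h S, and 2 were higher in tim17-1 at 24 h SL.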

Other observations

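The reverse course, low in dry seed and at 24 h SL and high between, was more common in WT: 369 probe sets reached a mirrored score of 1, against 130 with a dip score of at least 1. The 43 members with 1 gene lay on chromosomes 1 to 5 in numbers of 8, 5, 14, 7 and 9. These are 18.6%, 11.6%, 32.6%, 16.3% and 20.9%, against 25.7%, 16.4%, 20.4%, 14.6% and 22.4% of all probe sets with 1 gene, and the difference was not tested. Their median gene length was 2217 bp, against 2117 bp over all probe sets with 1 gene (TAIR10.1).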
